A study of Homo sapiens with 16 samples.

Results

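TSC22D3, CRISPLD2 and DUSP1 are 3 genes known to respond to the glucocorticoid receptor, among other inputs, and they were followed here over all 6 groups of an array experiment on AsPC-1 cells. AsPC-1 is an established human pancreatic adenocarcinoma line. The genes were chosen from measured values of these same comparisons, so their own changes are given as descriptions with no test. Every probe set annotated to one of the 3 genes alone was taken, which gave 6 of the 6442 probe sets with a single gene, and 3 of 5250 genes. TSC22D3 had 3 probe sets, DUSP1 had 2 and CRISPLD2 had 1.

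In the drug experiment, the line was exposed to 10 µM ICG-001, or to the DMSO vehicle, and read at 6 h and at 24 h. Each of these 4 groups has 3 arrays. ICG-001 binds CBP, a transcriptional coactivator, and was developed as a blocker of the CBP and β-catenin interaction. In a separate experiment, cells were transfected with 20 nM control siRNA or siRNA against CTNNB1, the β-catenin gene, and RNA was taken at 48 h, with 2 arrays in each group. All cells were of this line, the drug experiment was kept in serum-containing medium, and the labels name no glucocorticoid among the treatments. The labels call the arrays biological replicates without saying whether they came from separate cultures, so the errors below measure the spread between these arrays, which may be technical.

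The glucocorticoid receptor is a transcription factor that waits in the cytoplasm on a chaperone complex built around HSP90. Bound by cortisol or a synthetic steroid, it enters the nucleus, recruits coactivators that include CBP, and raises a set of genes that restrain inflammation. TSC22D3, also called GILZ, encodes a leucine zipper protein that binds and inhibits NF-κB and AP-1. DUSP1 encodes a nuclear phosphatase that switches off the MAP kinases p38 and JNK, and is also an immediate early gene induced by growth factors and stress. CRISPLD2 encodes a secreted protein of the CAP family that binds bacterial lipopolysaccharide.

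The DNA just upstream of the 3 genes is shown because the members are grouped by a shared regulator, and these windows show which of that regulator's motif letters are present there. The sequences are from RefSeq (GRCh38.p14), read 5′ to 3′ on the gene's strand, and each ends at the base before a transcription start. RefSeq listed 4 starts for TSC22D3, of which the one shown was chosen because its window held a TATA box, and 1 start for each of the other genes. The files do not say which TSC22D3 start the probe sets read. Capitals mark motif matches.
TSC22D3, chrX:107717063-107717312, minus strand: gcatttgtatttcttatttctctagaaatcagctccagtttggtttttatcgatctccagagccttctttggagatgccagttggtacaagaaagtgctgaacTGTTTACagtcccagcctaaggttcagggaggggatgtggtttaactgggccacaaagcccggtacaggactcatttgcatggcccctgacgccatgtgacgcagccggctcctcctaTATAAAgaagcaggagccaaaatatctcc
CRISPLD2, chr16:84819735-84819984, plus strand: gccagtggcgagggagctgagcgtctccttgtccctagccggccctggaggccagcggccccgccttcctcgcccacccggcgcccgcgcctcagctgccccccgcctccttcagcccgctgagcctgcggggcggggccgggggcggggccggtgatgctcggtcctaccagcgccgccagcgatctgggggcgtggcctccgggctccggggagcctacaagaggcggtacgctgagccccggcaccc
DUSP1, chr5:172771196-172771445, minus strand: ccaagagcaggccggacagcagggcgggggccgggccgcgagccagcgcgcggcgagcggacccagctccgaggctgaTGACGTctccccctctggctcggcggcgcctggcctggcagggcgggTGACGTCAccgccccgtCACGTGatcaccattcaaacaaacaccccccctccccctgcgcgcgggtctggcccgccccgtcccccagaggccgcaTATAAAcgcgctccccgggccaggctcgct

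The windows of 250 bases were searched on both strands for the single arm TGTTCT of the glucocorticoid response element, the full element (AGAACA, 3 free bases and TGTTCT), the cAMP response element TGACGTCA and its core TGACGT, the FOXO element GTAAACA and the E-box CACGTG. The TATA box TATAAA was searched on the gene's strand alone. Neither the full glucocorticoid element nor its arm was present in the 3 windows shown. The arm was also not in the other TSC22D3 windows. Of 35116 upstream windows of the same length over all genes, 1 held the full element (0.00285%) and 12.4% held the arm, so a window without either is the usual case. No match says only that these letters are not in these 250 bases, since receptor binding sites often lie farther away.

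The DUSP1 window held the full cAMP response element, which began 125 bases before the start and is found in 1.65% of all windows. Its core also occurred 172 bases before the start, and the core was found in 7.1% of windows. An E-box followed at 108 bases (6.34% of windows) and a TATA box at 30 bases (6.8%). The TSC22D3 window held the FOXO element on the opposite strand, where it reads TGTTTAC, at 147 bases before the start (2.98% of windows), and a TATA box at 29 bases. The CRISPLD2 window held none of the 7 motifs. It was also the richest in G and C at 77.6%, against 74.4% for DUSP1 and 48% for this TSC22D3 window. The TATA box of TSC22D3 was fixed by the choice of window, and the other TSC22D3 windows held neither a TATA box nor the FOXO element. A match is a description of letters, not of binding.

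TSC22D3 was higher with ICG-001 than with DMSO at both times. Its probe set 208763_s_at had intensities of 490, 485 and 497 on the 3 arrays with DMSO at 6 h and of 3711, 3533 and 3344 with ICG-001. At 24 h it read 387, 372 and 379 with DMSO and 2122, 2197 and 2105 with ICG-001. The arrays with ICG-001 stood far above those with DMSO at each time, and no array of one group reached the other.

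Changes are given as differences of log2(intensity + 16) after quantile normalization of the 16 arrays, with the standard error (SE) of a model over all arrays, whereas intensities are as deposited. On that scale TSC22D3 was higher with ICG-001 by 2.37 ± 0.07 at 6 h, a fold change of 5.17, and by 2.02 ± 0.07 at 24 h, a fold change of 4.05 (3 arrays against 3). These sizes depend on the scaling. They were 2.81 and 2.45 in the deposited scaling, in which no normalization was added. The background for such a pattern was large: over all genes, 11.6% had normalized arrays with ICG-001 entirely above those with DMSO at 6 h and 14.4% at 24 h.

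The TSC22D3 level also moved with time. With DMSO it was lower at 24 h than at 6 h by 0.41 ± 0.07 on the log2 scale, without overlap between the arrays. With ICG-001 it was lower at 24 h by 0.77 ± 0.07, so the effect of the drug was 0.35 ± 0.09 smaller at 24 h. Over all genes, 11.6% had DMSO arrays entirely lower at 24 h than at 6 h.

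A further TSC22D3 probe set, 207001_x_at, changed with the drug in the same direction. At 6 h it read 32.4, 51.1 and 38.6 with DMSO against 256, 278 and 240 with ICG-001. At 24 h it read 40.3, 23.1 and 24.1 against 143, 143 and 125. Its log2 change was 2.27 ± 0.14 at 6 h and 1.61 ± 0.14 at 24 h. Across the 12 drug arrays the correlation between these probe sets was 0.98, a description in which the points share 4 groups. Over all 16 arrays it was 0.80.

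The third TSC22D3 probe set, 235364_at, did not show the change. Its intensity ran from 1.96 to 29.3 over the 16 arrays, around the 16 that was added before taking log2, and its log2 change was 0.06 ± 0.26 at 6 h and -0.20 ± 0.26 at 24 h. The x in a name such as 207001_x_at marks a probe set that may also bind other transcripts, and an s marks one that reads several transcripts of a gene or family.

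**Figure D1:**
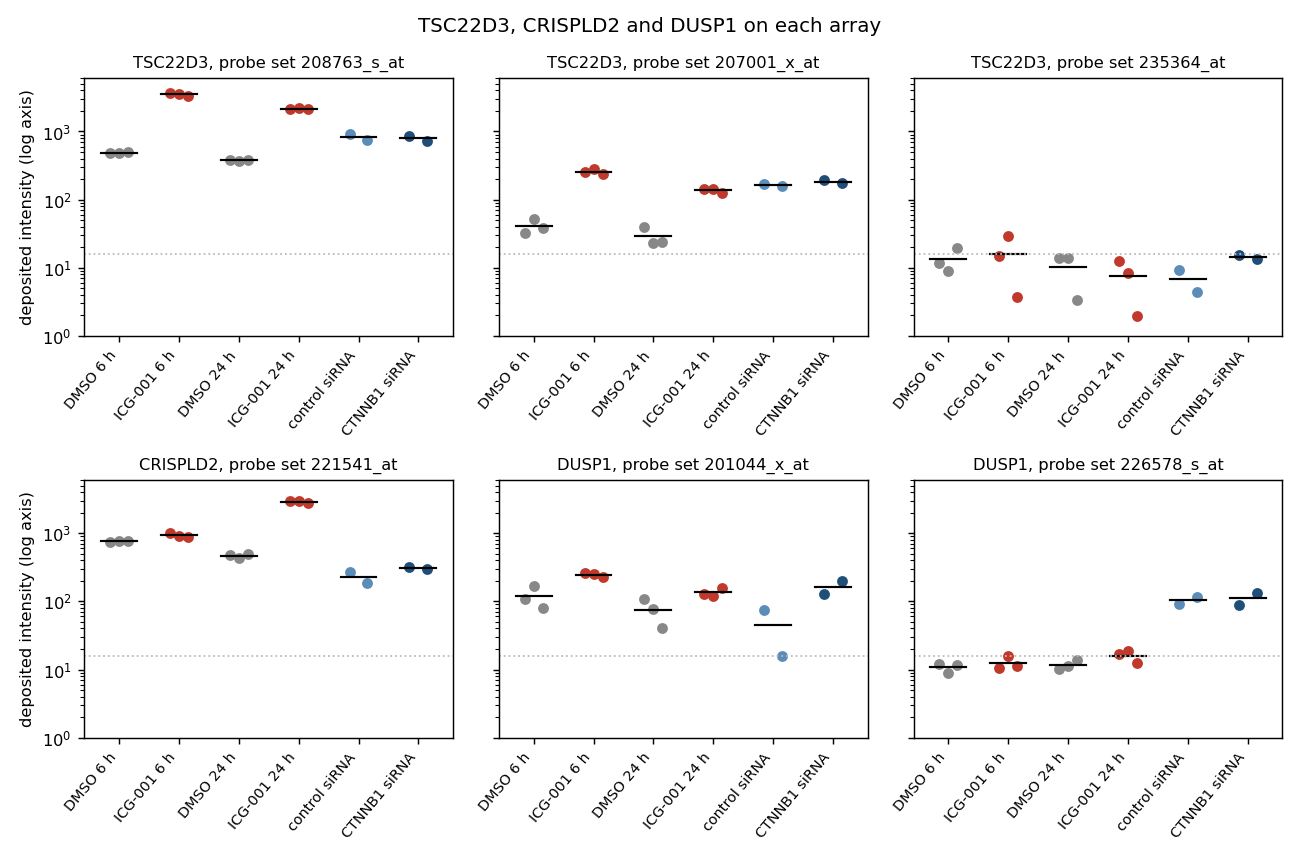
Deposited intensity (log axis) of the 6 probe sets of TSC22D3, CRISPLD2 and DUSP1 on each of the 16 arrays, by group; points are arrays, black bars are group means and the dotted line marks the 16 added before log2. TSC22D3 (208763_s_at) was high with ICG-001 at 6 h and 24 h, CRISPLD2 at 24 h, while the DUSP1 probe sets had different patterns.

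CRISPLD2 was higher with ICG-001 at 24 h, whereas at 6 h it lay close to the vehicle. Its probe set 221541_at read 473, 434 and 490 with DMSO at 24 h and 2966, 2951 and 2784 with ICG-001. At 6 h it read 750, 772 and 775 with DMSO and 999, 907 and 880 with ICG-001. The 24 h groups were far apart, and the 6 h groups differed by a small step in the deposited intensities.

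The CRISPLD2 change at 24 h was 2.19 ± 0.08 on the log2 scale, a fold change of 4.57, and 2.60 in the deposited scaling. At 6 h it was -0.06 ± 0.08, and its sign turned with the scaling: it was 0.27 in the deposited scaling and 0.26 with each array centred on its median. At 6 h the arrays overlapped after normalization and did not overlap as deposited, where 15% of all genes had every ICG-001 array above every DMSO array. No direction at 6 h is therefore given for CRISPLD2.

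Part of the 24 h difference lay in the vehicle arrays. CRISPLD2 was lower with DMSO at 24 h than at 6 h by 0.79 ± 0.08, without overlap, as were the DMSO arrays of 11.6% of all genes. With ICG-001 CRISPLD2 was higher at 24 h than at 6 h by 1.46 ± 0.08, a fold change of 2.75. The drug effect was thus 2.25 ± 0.11 larger at 24 h than at 6 h. Of all genes, 7.81% passed the test for a difference between these effects at an adjusted p under 0.05 (limma, Benjamini-Hochberg). With a single probe set, CRISPLD2 had no further reading on the array.

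DUSP1 varied most between arrays of a group, and its probe sets disagreed. The one with the higher mean, 201044_x_at, read 108, 167 and 79.2 with DMSO and 263, 249 and 230 with ICG-001 at 6 h. At 24 h it read 108, 77.4 and 40.0 with DMSO and 128, 119 and 159 with ICG-001. No array of one group reached the other at either time, but at 24 h the highest DMSO array lay close to the lowest with ICG-001. After normalization these 2 arrays stood at 6.79 and 6.80 on the log2 scale. Over all genes, 15% had ICG-001 arrays entirely above the DMSO arrays at 6 h as deposited. After normalization the shares were 11.6% at 6 h and 14.4% at 24 h.

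The DUSP1 change by this probe set was 1.02 ± 0.33 at 6 h, a fold change of 2.03, and 0.71 ± 0.33 at 24 h, and the effects differed between the times by -0.31 ± 0.47. Its pooled SD between arrays of a group was 0.52 on the log2 scale, against 0.07 for TSC22D3 and 0.10 for CRISPLD2. Single arrays moved the 24 h value: it was 0.42 without DMSO 24 h replicate 3. They also moved the difference between the times, to -0.61 without DMSO 24 h replicate 3, -0.60 without DMSO 6 h replicate 2, -0.07 without DMSO 6 h replicate 3 and -0.05 without DMSO 24 h replicate 1. With DMSO, the change of DUSP1 from 6 h to 24 h was -0.63 ± 0.33, with overlapping arrays. It was -0.34 without DMSO 24 h replicate 3 and -0.35 without DMSO 6 h replicate 2, so no direction over time is given.

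The other DUSP1 probe set, 226578_s_at, read between 8.86 and 18.5 on all 12 drug arrays, near the 16 added before log2, and its log2 change was 0.09 ± 0.16 at 6 h and again at 24 h. The correlation of both DUSP1 probe sets was -0.11 over the 12 drug arrays and -0.02 over all 16. The values of DUSP1 thus depend on which probe set is read, and which of them reports the DUSP1 transcript was not tested.

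**Figure D2:**
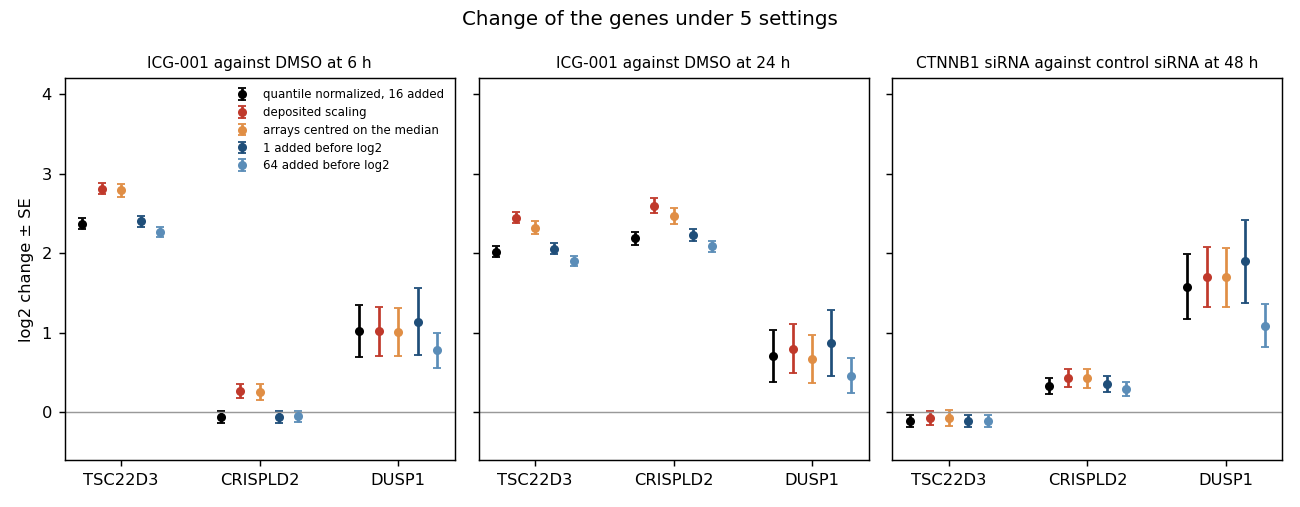
Log2 change ± SE of TSC22D3, CRISPLD2 and DUSP1 (the probe set of each with the highest mean) in the 3 comparisons under 5 settings of scaling and added constant. TSC22D3 at both times and CRISPLD2 at 24 h were near or above 2 in each setting, CRISPLD2 at 6 h lay on either side of 0, and the SE of DUSP1 was the widest.

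Transfection with siRNA against CTNNB1 was compared with control siRNA at 48 h. CTNNB1 itself had no probe set of its own among the values used here, and its knockdown was not checked. TSC22D3 (208763_s_at) read 920 and 751 with control siRNA and 850 and 736 with CTNNB1 siRNA. The arrays overlapped, and the log2 change was -0.11 ± 0.08. The probe set 207001_x_at gave 0.12 ± 0.17, so no direction is given for TSC22D3 here.

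CRISPLD2 read 266 and 188 with control siRNA and 318 and 296 with CTNNB1 siRNA. The groups did not overlap, and the log2 change was 0.33 ± 0.10 (2 arrays against 2). It was 0.16 without control siRNA replicate 2 and 0.50 without control siRNA replicate 1, so each control array moved it by more than 1.5 times. With only 2 arrays in each group, 22.6% of all genes had CTNNB1 siRNA arrays entirely above the control after normalization.

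DUSP1 (201044_x_at) read 74.0 and 15.9 with control siRNA and 126 and 196 with CTNNB1 siRNA, a log2 change of 1.58 ± 0.41. The control arrays stood far apart from each other. Without control siRNA replicate 2, the lower of them, the change was 0.74, and without replicate 1 it was 2.41. The probe set 226578_s_at read 92.0 and 115 against 89.8 and 132, a change of 0.01 ± 0.20, with overlapping arrays. So the step seen with the first probe set was not seen with the other.

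The order of the 6 groups differed between TSC22D3 (208763_s_at), CRISPLD2 and DUSP1. For TSC22D3 the mean normalized log2 level rose from 8.66 (DMSO 24 h) through 9.07 (DMSO 6 h), 9.84 (CTNNB1 siRNA), 9.95 (control siRNA) and 10.68 (ICG-001 24 h) to 11.44 (ICG-001 6 h). Of these neighbours only the siRNA groups overlapped. How many of all genes lack overlap between neighbours from different experiments was not counted, so a lack of overlap there is only a description. The TSC22D3 probe set 207001_x_at put control siRNA (7.83) and CTNNB1 siRNA (7.96) above ICG-001 24 h (6.99), with ICG-001 6 h at 7.97. The place of the siRNA groups thus depends on the TSC22D3 probe set. For CRISPLD2 the order was 8.19 (control siRNA), 8.53 (CTNNB1 siRNA), 8.94 (DMSO 24 h), 9.67 (ICG-001 6 h), 9.73 (DMSO 6 h) and 11.13 (ICG-001 24 h). Its 6 h groups overlapped, and they changed places in the deposited scaling.

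For DUSP1 (201044_x_at) the mean normalized log2 level rose from 6.20 (control siRNA) through 6.26 (DMSO 24 h), 6.90 (DMSO 6 h), 6.98 (ICG-001 24 h) and 7.79 (CTNNB1 siRNA) to 7.92 (ICG-001 6 h). Its ICG-001 24 h and CTNNB1 siRNA arrays did not overlap, whereas each other pair of neighbours did. By the probe set 226578_s_at the siRNA groups instead stood above all drug groups, at 7.37 (control siRNA) and 7.38 (CTNNB1 siRNA) against 4.71 to 4.84. Levels across the drug and siRNA experiments are set side by side only. The median intensity was 20.6 to 28.6 on the drug arrays and 12.7 to 13.05 on the siRNA arrays, so experiment and treatment cannot be told apart there.

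The duct markers of this line also differed between the experiments. Of 10 listed duct markers, 5 were measured, and the keratin gene KRT7 had a mean intensity of 1458 ± 55.2 with DMSO at 6 h (SD, n = 3) but 92.2 ± 16.9 with control siRNA (n = 2). The adhesion gene CDH1 read 290 ± 14.6 and 10.5 ± 2.6 in the same groups. KRT7 also moved with treatment, with changes of -0.59 ± 0.09 at 6 h (-0.21 in the deposited scaling, limma adjusted p = 0.164), -1.35 ± 0.09 at 24 h and 1.06 ± 0.11 with CTNNB1 siRNA. Of the listed markers of other cell types 8 were measured. With DMSO at 6 h the acinar trypsinogen gene PRSS2 had a mean intensity of 5279 ± 104 (SD, n = 3), and 2088 ± 75.9 with control siRNA (n = 2). Its direction with ICG-001 at 6 h turned with the scaling, from -0.22 to 0.30 as deposited. Of the fibroblast markers, DCN read 80.6 ± 11.1 with DMSO at 6 h and 17.9 ± 13.1 with control siRNA, and COL1A1 read 36.3 ± 17.5 and 78.0 ± 13.4. THY1 and COL3A1 read 24.9 ± 11.2 and 12.5 ± 4.94 with DMSO at 6 h. In the same group the leukocyte marker PTPRC read 24.5 ± 6.32 and the endothelial markers KDR and PECAM1 14.7 ± 6.9 and 10.0 ± 5.31. The part of these markers in the levels of TSC22D3, CRISPLD2 and DUSP1 on the siRNA arrays was not tested.

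The 3 genes did not follow one profile over the drug arrays. Across the 12 arrays, which share 4 groups, the correlation of log2 values was 0.539 for TSC22D3 with CRISPLD2, 0.775 for TSC22D3 with DUSP1 and 0.220 for CRISPLD2 with DUSP1. Genes with the most similar profile were taken as the 4 with the highest correlation to each member over these arrays, among genes above the 25th percentile of mean level. These were chosen for likeness to the member, so their own changes are descriptions.

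For TSC22D3 the 4 genes were CAMTA2 (correlation 0.997), TRIB3 (0.997), MXD1 (0.996) and NDRG1 (0.994). TRIB3, a pseudokinase gene induced in amino acid and endoplasmic reticulum stress, had log2 changes with ICG-001 of 1.88 ± 0.06 at 6 h and 1.74 ± 0.06 at 24 h. It kept its likeness over all 16 arrays (0.993), whereas CAMTA2, MXD1 and NDRG1 fell to 0.834, 0.816 and 0.740 once the siRNA arrays were included. MXD1, which encodes a partner of MAX that opposes MYC, changed by 1.08 ± 0.05 and 0.84 ± 0.05 (1.33 at 24 h in the deposited scaling).

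For CRISPLD2 they were CDHR5 (0.986), CTSLP8 (0.978), MIR100HG (0.972) and PPP2R2C (0.972). CDHR5, a protocadherin gene of the epithelial brush border, had a log2 change of -0.05 ± 0.09 at 6 h and 1.14 ± 0.09 at 24 h, and at 24 h its intensity was 178 ± 13.2 in the DMSO group and 446 ± 7.87 in the ICG-001 group (SD, n = 3). The shared late step of CDHR5 and CRISPLD2 follows from the choice of CDHR5 by likeness. Over 16 arrays, which include the 12 used for that choice, their correlation was 0.981.

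For DUSP1 (201044_x_at) they were PPP3CC (0.959), CXCL2 (0.923), KLF13 (0.902) and RPS6KA5 (0.871). CXCL2, a neutrophil chemokine, was the only one of the 4 with a correlation above 0.7 over 16 arrays (0.777), against 0.215 to 0.308 for the others. The likeness of a gene to DUSP1 also carries the spread of DUSP1 within its groups.

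**Figure D3:**
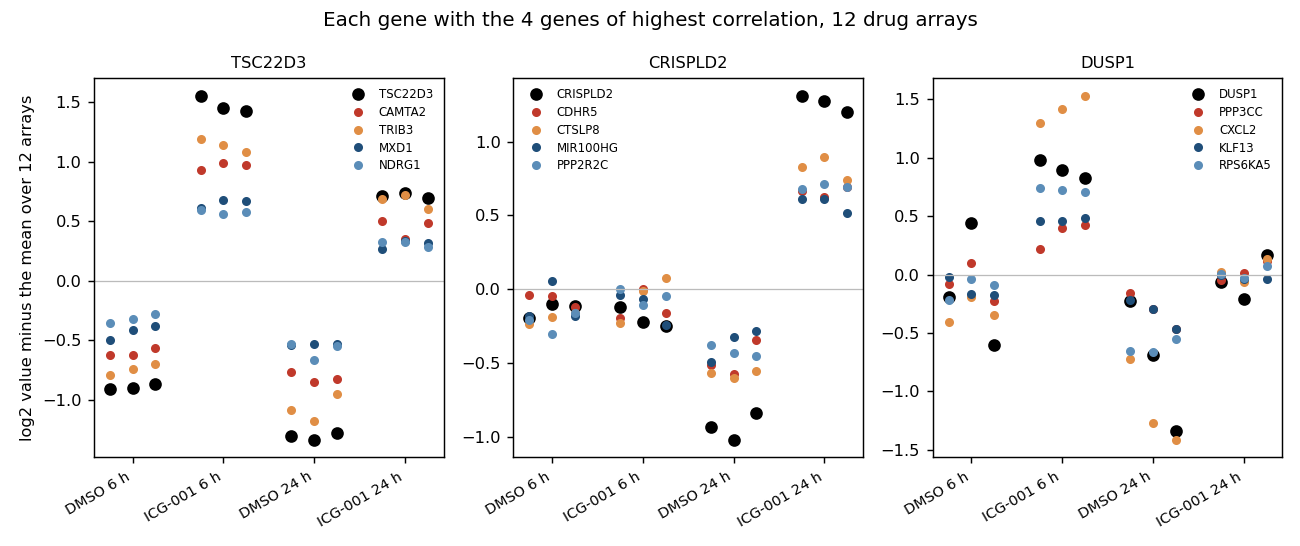
Log2 value minus the mean over the 12 drug arrays for TSC22D3, CRISPLD2 and DUSP1 (black) and the 4 genes most alike to each, with 1 point per array. TSC22D3 and its 4 genes were high on all 6 arrays with ICG-001, CRISPLD2 and its 4 on the 3 arrays with ICG-001 at 24 h, and DUSP1 was scattered within its DMSO groups.

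Other genes known to be induced by glucocorticoids moved in both directions. Of 59 such genes listed besides the 3, 24 were measured, and at 6 h 6 of them rose with ICG-001 and 2 fell (33.3% called, limma adjusted p under 0.05). Of all genes 13.8% were called at 6 h, 5.56% higher and 8.23% lower. At 24 h 7 of the list rose and 2 fell (37.5%), against 20.5% of all genes, 9.22% higher and 11.3% lower. In the deposited scaling 7 rose and 1 fell at 6 h, and 10 rose and 1 fell at 24 h. The list's median log2 change was 0.02 at 6 h and 0.12 at 24 h, against -0.02 for all genes at both times, and most of the 24 passed in neither direction. This list and those below were chosen with earlier results of these data known, so counts from them are descriptions. The table holds only probe sets that varied over the 16 arrays, and FKBP5, PER1, ZBTB16 and SGK1, the usual markers of receptor activity, were not among the genes measured.

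Among the genes that rose at both times were DDIT4, an inhibitor of mTOR signalling, and the transcription factor gene FOXO3. DDIT4 rose from 2615 ± 72.5 with DMSO to 9090 ± 246 with ICG-001 at 6 h (SD, n = 3), by 1.34 ± 0.06 on the log2 scale (± SE, limma adjusted p = 1.66e-12). At 24 h it rose by 1.08 ± 0.06 (limma adjusted p = 1.82e-11), or 1.72 in the deposited scaling. FOXO3 rose by 0.98 ± 0.11 at 6 h and by 0.76 ± 0.11 at 24 h.

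IGFBP1, a liver-type insulin-like growth factor binding protein gene, rose by 0.98 ± 0.11 at 6 h and by 0.61 ± 0.11 at 24 h. ERRFI1, an inhibitor of the EGF receptor, rose by 0.93 ± 0.05 and 0.49 ± 0.05, and in the deposited scaling by 1.46 and 1.08. THBD, the thrombomodulin gene, rose by 0.73 ± 0.08 at 6 h (1.23 in the deposited scaling) and by 1.03 ± 0.08 at 24 h. The CDK inhibitor gene CDKN1C rose by 0.88 ± 0.11 at 24 h. Its 6 h change of 0.41 ± 0.11 (limma adjusted p = 0.0095) did not pass without ICG-001 6 h replicate 1 (0.34, limma adjusted p = 0.0681) or without DMSO 6 h replicate 1 (0.35, limma adjusted p = 0.0703).

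MAOA, which encodes a monoamine oxidase, rose at 24 h by 1.13 ± 0.22 (limma adjusted p = 0.000687; 0.58 with 64 in place of 16 added before log2) and stood at -0.13 ± 0.22 at 6 h. Like CRISPLD2, its drug effect was larger at 24 h, by 1.26 ± 0.32 (limma adjusted p = 0.0148). CAVIN2, a caveolar coat gene, fell at both times, with changes of -1.34 ± 0.12 at 6 h (-0.76 with 64 added before log2) and -1.47 ± 0.12 at 24 h. PDK4, which encodes a kinase that blocks pyruvate dehydrogenase, had a change of -0.43 ± 0.05 at 6 h and -0.45 ± 0.05 at 24 h. In the deposited scaling these were -0.06 (limma adjusted p = 0.685) and 0.10 (limma adjusted p = 0.271), so its fall rests on the normalization.

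**Figure D4:**
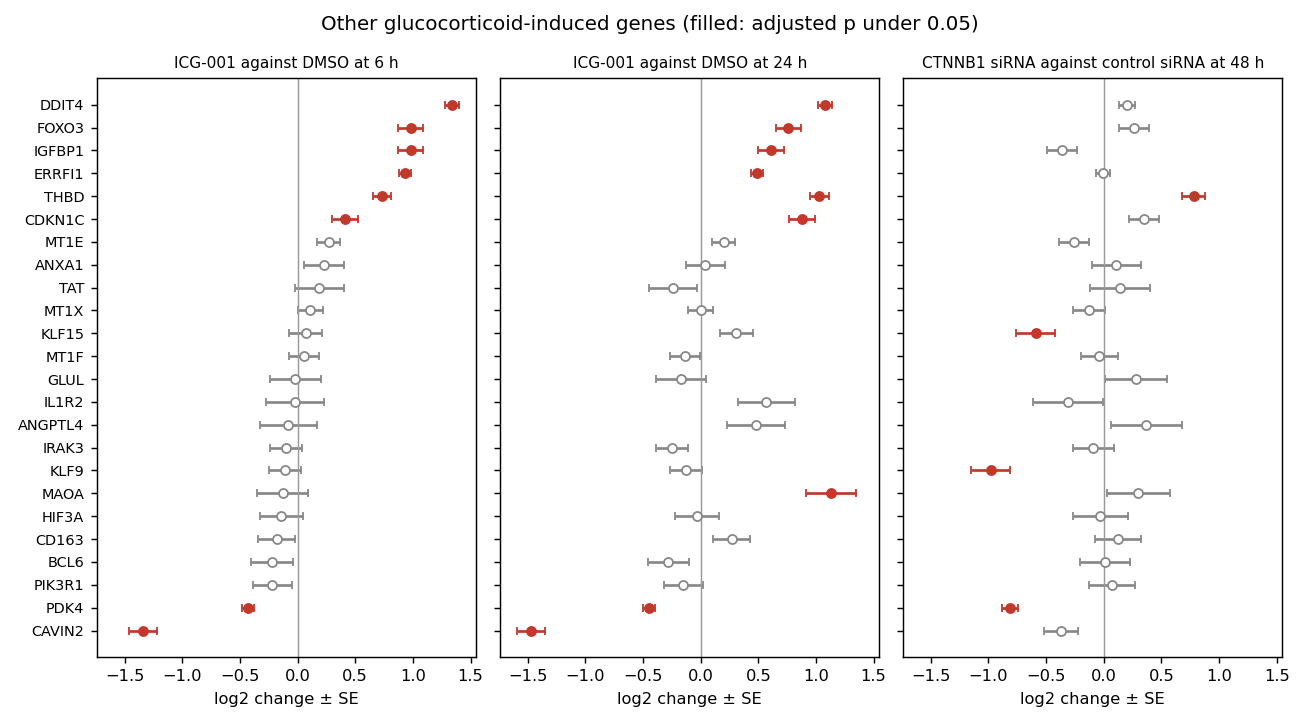
Log2 change ± SE of the 24 measured glucocorticoid-induced genes other than TSC22D3, CRISPLD2 and DUSP1, in 3 comparisons, ordered by the 6 h change; filled red points had an adjusted p under 0.05. DDIT4, FOXO3, IGFBP1, ERRFI1 and THBD rose with ICG-001 at both times, CAVIN2 fell, and most others lay near 0.

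With CTNNB1 siRNA 1 of the 24 genes rose and 3 fell (16.7% called), against 12% of all genes, 6.19% higher and 5.83% lower. In the deposited scaling 2 rose and 2 fell, and on the siRNA arrays alone 1 rose and 1 fell. CDKN1C passed as a rise in the deposited scaling (0.49, limma adjusted p = 0.0134). THBD rose by 0.78 ± 0.10 (limma adjusted p = 2e-05). KLF9, a transcription factor gene that the receptor induces directly, fell by 0.98 ± 0.17 (limma adjusted p = 0.000491), or -0.65 in the deposited scaling, -1.66 with a constant of 1 and -0.44 with a constant of 64. That call ended on the siRNA arrays alone (limma adjusted p = 0.255). PDK4 fell by 0.81 ± 0.07. The fall of KLF15, -0.59 ± 0.17, ended in the deposited scaling (-0.45, limma adjusted p = 0.203) and when either control array or CTNNB1 siRNA replicate 2 was left out (-0.65 to -0.50).

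Few genes of the receptor's own machinery were measured, 5 of 21 listed, and the receptor gene NR3C1 was not among them. At 6 h 3 of the 5 fell and 0 rose, where 8.23% of all genes fell, and at 24 h 2 fell, where 11.3% of all genes did. STIP1, a co-chaperone that links HSP70 and HSP90 during receptor assembly, fell with ICG-001 (-0.97 ± 0.07 at 6 h and -1.11 ± 0.07 at 24 h) and with CTNNB1 siRNA (-0.77 ± 0.08). In the deposited scaling its ICG-001 changes were -0.59 and -0.65, both past the test. NRIP1, a nuclear receptor corepressor gene, fell by 0.64 ± 0.09 at 6 h (-0.37 in the deposited scaling). Its 24 h change of -0.38 ± 0.09 did not pass in the deposited scaling (-0.15, limma adjusted p = 0.302).

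CREBBP, the gene of CBP, had at 6 h a mean intensity of 14.7 ± 6.75 with the vehicle and 3.4 ± 1.52 with the drug (SD, n = 3), under the 16 added before log2. Its change of -0.61 ± 0.17 was -1.76 with 1 added and -0.21 with 64 added, and the call ended without DMSO 6 h replicate 1 (-0.47, limma adjusted p = 0.103), without DMSO 6 h replicate 2 (-0.59, limma adjusted p = 0.0505) or without ICG-001 6 h replicate 1 (-0.55, limma adjusted p = 0.0768). With CTNNB1 siRNA its call ended in 6 settings, among them the deposited scaling (-0.55, limma adjusted p = 0.153) and the fits without control siRNA replicate 2 or CTNNB1 siRNA replicate 2. NR3C2, the mineralocorticoid receptor gene, which also binds cortisol, stood at 0.04 ± 0.17 at 6 h and -0.04 ± 0.17 at 24 h. The coactivator gene NCOA2 stood at 0.05 ± 0.14 and -0.27 ± 0.14. Neither of these passed the test.

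In the TSC22 family, TSC22D2 and TSC22D4 were measured of 3 listed relatives, and 0 passed in the 3 comparisons by limma. Of all genes 13.8% passed at 6 h, 20.5% at 24 h and 12% with CTNNB1 siRNA, so these few relatives cannot show whether the family responded. TSC22D4 stood at 0.12 ± 0.12 at 6 h and 0.05 ± 0.12 at 24 h. TSC22D2 had values of -0.07 ± 0.18 and 0.35 ± 0.18. It passed at 24 h on the drug arrays alone (0.33, limma adjusted p = 0.0427) and with CTNNB1 siRNA without control siRNA replicate 1 (0.82, limma adjusted p = 0.0075). In the CAP family of CRISPLD2, 3 of 9 were measured (CRISPLD1, CRISP1 and PI15) and 0 passed with ICG-001, again too few to set against those shares. CRISPLD1 was at -0.08 ± 0.18 at 24 h. Its mean intensity was 4.3 with control siRNA and 12.6 with CTNNB1 siRNA, under the 16 added before log2. Its call with CTNNB1 siRNA (0.70 ± 0.22) ended in the deposited scaling (0.49, limma adjusted p = 0.27). The call also ended without control siRNA replicate 2 or CTNNB1 siRNA replicate 1 (0.58 and 0.42).

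Among the MAP kinase phosphatases, the family of DUSP1, 4 of 9 were measured, and with ICG-001 2 fell at 6 h, 1 fell at 24 h and 0 rose at either time, where 8.23% and 11.3% of all genes fell. DUSP5, a nuclear phosphatase specific for ERK, fell by 0.53 ± 0.11 at 6 h and by 0.88 ± 0.11 at 24 h. DUSP9, a cytoplasmic one, fell by 0.68 ± 0.09 at 6 h, or by 0.42 in the deposited scaling. At 24 h DUSP9 did not pass. Its mean intensity as deposited was then 858 ± 53.4 with ICG-001 and 846 ± 80.7 with DMSO (SD, n = 3), so no direction is given. It passed at 24 h in 4 other settings, such as the replicate block (-0.25, limma adjusted p = 0.0387). Another was the fit without DMSO 24 h replicate 1 (-0.36, limma adjusted p = 0.00176). DUSP2 passed at 24 h in 4 others, among them arrays centred on the median (-0.65, limma adjusted p = 0.0177) and the drug arrays alone (-0.58, limma adjusted p = 0.0382). The change of DUSP1 (201044_x_at) at 6 h had the opposite sign to those of DUSP5 and DUSP9. DUSP2 had a change of 0.75 ± 0.23 with CTNNB1 siRNA, which did not pass in the deposited scaling (0.52, limma adjusted p = 0.213) or without control siRNA replicate 2 or CTNNB1 siRNA replicate 2 (0.61 and 0.51), and DUSP8 passed in no comparison. Of 17 listed MAP kinases and their upstream kinases 1 was measured, and it did not pass.

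DUSP1 is also an immediate early gene, and of 28 others listed 7 were measured. With ICG-001 3 of them rose at 6 h and 2 at 24 h, and 0 fell, where 5.56% and 9.22% of all genes rose. ATF3, a stress-induced transcription factor gene, rose from 90.2 ± 4.1 to 245 ± 22.3 at 6 h (SD, n = 3), by 1.33 ± 0.10, and by 0.89 ± 0.10 at 24 h. FOSL2, an AP-1 subunit gene, rose by 0.85 ± 0.06 and 0.70 ± 0.06. MCL1, a survival gene of the BCL2 family, rose by 0.55 ± 0.07 at 6 h and stood at 0.07 ± 0.07 at 24 h, where it passed in the deposited scaling (0.31, limma adjusted p = 0.00265).

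The cAMP response element in the DUSP1 window is the site of CREB, which recruits CBP. Of 16 listed CREB targets 4 were measured, and 0 passed with ICG-001 at 6 h or 24 h by limma, where 13.8% and 20.5% of all genes passed. With 4 genes, a count of 0 lies near these shares, and a part of CREB was not tested. With CTNNB1 siRNA PDE4B had a change of -1.11, which did not pass in the deposited scaling (-0.76, limma adjusted p = 0.0589) or without control siRNA replicate 2 or CTNNB1 siRNA replicate 2 (-0.95 and -0.81).

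FOXO factors bind the element found in the TSC22D3 window shown, which the other TSC22D3 windows lacked. A part of FOXO factors in the TSC22D3 level was not tested. Of 22 listed FOXO targets 9 were measured, and 3 rose at 6 h, 2 at 24 h and 2 with CTNNB1 siRNA, with 0 falls, where 5.56%, 9.22% and 6.19% of all genes rose. With DMSO alone 4 of the 9 were higher at 24 h than at 6 h, where 4.69% of all genes were higher (8.63% were called in either direction), and these were CCNG2 (0.89 ± 0.09), YPEL3 (0.81 ± 0.10), FBXO32 (0.79 ± 0.18; 0.43 with 64 added before log2) and CDKN2B (0.78 ± 0.10). CCNG2, an atypical cyclin gene, rose by 1.48 ± 0.09 at 6 h and stood at 0.22 ± 0.09 at 24 h, where it passed in the deposited scaling (0.67, limma adjusted p = 1.64e-05), with arrays centred on the median (0.54, limma adjusted p = 0.000464), on the drug arrays alone (0.23, limma adjusted p = 0.00322) and with the replicate block (0.22, limma adjusted p = 0.015). CDKN2B, a CDK inhibitor gene, rose by 0.93 ± 0.10 at 6 h, by 0.83 ± 0.10 at 24 h and by 0.61 ± 0.12 with CTNNB1 siRNA, the last of which was 0.34 without control siRNA replicate 2 and did not pass on the siRNA arrays alone (0.64, limma adjusted p = 0.0598). YPEL3 rose by 0.46 ± 0.10 at 6 h and by 1.03 ± 0.10 at 24 h, and its call with CTNNB1 siRNA (0.46 ± 0.13) ended without control siRNA replicate 2 (0.22, limma adjusted p = 0.304), without either CTNNB1 siRNA array, on the siRNA arrays alone (limma adjusted p = 0.165) and without the intensity trend (limma adjusted p = 0.0645).

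Genes that glucocorticoids are known to repress were also described, since TSC22D3 and DUSP1 are held to restrain them. Of 26 listed 10 were measured, and with ICG-001 7 rose at 6 h and 6 at 24 h, and 0 fell, where 5.56% and 9.22% of all genes rose. The list was chosen with earlier results of these data known, so these counts are descriptions. The list's median log2 change was 0.56 at 6 h and 0.78 at 24 h, against -0.02 for all genes at both times. With DMSO alone 4 of the 10 were lower at 24 h than at 6 h, where 3.94% of all genes were lower, and these were CXCL8 (-1.15 ± 0.09), CXCL2 (-0.82 ± 0.13), CXCL3 (-0.54 ± 0.10) and CCL20 (-0.45 ± 0.06). The cytokine gene IL1A rose by 2.01 ± 0.12 at 6 h and by 2.54 ± 0.12 at 24 h. The chemokine gene CXCL2 rose by 1.73 ± 0.13 and 1.17 ± 0.13, and CCL20 by 1.31 ± 0.06 and 1.05 ± 0.06. TSC22D3 and several genes of the repressed list were high on the same arrays with ICG-001, and a link between them was not tested.

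In the repressed list, MMP1, a collagenase gene, rose by 2.18 ± 0.15 at 24 h. Its drug effect was larger at 24 h than at 6 h by 1.69 ± 0.21 (limma adjusted p = 1.73e-05). Its 6 h change was 0.48 ± 0.15 (limma adjusted p = 0.0301; 0.73 in the deposited scaling), a call that ended when any 1 of the 6 arrays at 6 h was left out (0.46 to 0.51). The 6 h call of CXCL8, a chemokine gene of the list named after its values were seen (0.29 ± 0.09, limma adjusted p = 0.0264; 0.52 in the deposited scaling), ended without ICG-001 6 h replicate 2 or 3 or DMSO 6 h replicate 1 or 2 (0.23 to 0.29), and without the intensity trend (limma adjusted p = 0.104). IL1B rose by 0.63 ± 0.08 at 6 h and by 1.56 ± 0.08 at 24 h.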

How the data were processed

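RNA from 16 Affymetrix arrays was analysed. The authors deposited a linear intensity for each probe set on each array; how they summarised and scaled it is not given in the sources used here. Total RNA was labelled with biotin, per the labels. Of 9554 deposited probe sets, all with a coefficient of variation of at least 0.40, 6442 had a single gene, 252 had several and 2860 had none; symbols of 6432 matched current ones. Intensities ran from 0.55 to 19346.51, and 1.1% were exactly 1.

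The value 16 was added, log2 taken and the 16 arrays quantile normalized. The probe set with the highest mean stood for each of 5250 genes. Group means over the 16 arrays were fitted in limma 3.58.1 (R 4.3.3), eBayes using an intensity trend (10 residual and 7.84 prior degrees of freedom). Tests were two-sided with Benjamini-Hochberg adjustment over 5250 genes, with 0.05 as the limit for a call of rise or fall. The procedure was checked on simulated data. No arrays were identical (highest correlation 0.9849). The number of arrays limits the precision.

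The members and gene lists were chosen with earlier results of these data known. Named list genes were the measured genes of the receptor machinery and the families of the 3 genes, and the up to 6 called genes of other lists with the largest ICG-001 change, or 3 for siRNA; CDKN1C and PDK4 at 6 h, ERRFI1, IGFBP1 and PDK4 at 24 h, and KLF15 were added after their values were seen. Same-numbered replicates did not deviate together (correlations -0.04 to 0.09), so they were not paired. Alternatives were the deposited scaling, median centring, 1 or 64 added, separate experiments, a replicate block, no trend, a filter on dim genes, other probe sets and each array left out.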

Additional observations from a re-analysis of the deposited data

Results flagged for a closer look

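For 11 of the listed genes named beside TSC22D3, CRISPLD2 and DUSP1, the effect of ICG-001 differed between 24 h and 6 h in the test of that difference (limma, adjusted over 5250 genes, of which 7.81% passed). Values are the log2 effect at 24 h minus that at 6 h, ± SE, with 3 arrays in each of 4 groups. The effect was smaller at 24 h for CCNG2 (-1.26 ± 0.12, limma adjusted p = 1.2e-06), CXCL3 (-0.67 ± 0.14, limma adjusted p = 0.00464), ERRFI1 (-0.43 ± 0.07, limma adjusted p = 0.000272) and MCL1 (-0.48 ± 0.10, limma adjusted p = 0.0037). It was larger at 24 h for MMP1 (1.69 ± 0.21, limma adjusted p = 1.73e-05), MAOA (1.26 ± 0.32, limma adjusted p = 0.0148; 0.65 with 64 added before log2) and IL1B (0.93 ± 0.11, limma adjusted p = 1.76e-05). YPEL3 also had a larger effect at 24 h (0.57 ± 0.15, limma adjusted p = 0.0204), which did not pass without ICG-001 6 h replicate 2, ICG-001 24 h replicate 2 or 3, or DMSO 6 h replicate 3 (0.51 to 0.55), nor without the intensity trend (limma adjusted p = 0.0711). For DUSP9, which fell at 6 h and did not pass at 24 h, the difference was 0.44 ± 0.12 (limma adjusted p = 0.033). It did not pass with arrays centred on the median (0.32, limma adjusted p = 0.128) or without the intensity trend (limma adjusted p = 0.149). Nor did it pass without any 1 of 10 of the 12 drug arrays (0.32 to 0.46). The change of the duct marker KRT7 was further below 0 at 24 h (-0.76 ± 0.13, limma adjusted p = 0.00044). The difference for the acinar marker PRSS2 (0.33 ± 0.08, limma adjusted p = 0.0175) did not pass without the intensity trend (limma adjusted p = 0.224), ICG-001 24 h replicate 2 or DMSO 6 h replicate 3 (0.30 and 0.28). For TSC22D3, CRISPLD2 and DUSP1 the same difference is given above without a test.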

How the results depend on the processing

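The deposited scaling gave log2 changes with ICG-001 of 2.81 at 6 h and 2.45 at 24 h for TSC22D3 and of 0.27 and 2.60 for CRISPLD2. Centring arrays on the median gave 2.79 and 2.32 for TSC22D3, 0.26 and 2.47 for CRISPLD2, and 414 called genes with CTNNB1 siRNA in place of 631. Adding 64 gave 2.27 and 1.90 for TSC22D3 and 2.09 for CRISPLD2 at 24 h. The siRNA arrays alone gave 303 called genes and 2 of the glucocorticoid-induced list, with fewer arrays in the fit. The deposited scaling moved the balance of calls at 6 h from 292 risen and 432 fallen to 406 and 244, and at 24 h from 484 and 592 to 738 and 385.

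Other probe sets gave, at 6 h, 24 h and with CTNNB1 siRNA, 2.27, 1.61 and 0.12 (TSC22D3, 207001_x_at), 0.06, -0.20 and 0.62 (TSC22D3, 235364_at) and 0.09, 0.09 and 0.01 (DUSP1, 226578_s_at); the last gave 0.04 for DMSO over time in place of -0.63.

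Leaving out each array in turn gave 2.32 to 2.39 at 6 h and 2.00 to 2.04 at 24 h for TSC22D3, -0.10 to -0.03 and 2.15 to 2.24 for CRISPLD2, and 0.78 to 1.31 and 0.42 to 0.98 for DUSP1. With CTNNB1 siRNA the ranges were -0.23 to 0.01, 0.16 to 0.50 and 0.74 to 2.41, where a lone array is assumed to vary like the other groups. Called genes ranged over 622 to 665 at 6 h, 934 to 1025 at 24 h and 489 to 667 with siRNA, and those of the glucocorticoid-induced list over 7 to 8, 9 to 10 and 3 to 6. The fit with the replicate block left the members' changes as they were (2.37 and 2.02 for TSC22D3) and gave 734, 1093 and 656 called genes. It ended the siRNA calls of KLF15 (limma adjusted p = 0.0532) and DUSP2 (limma adjusted p = 0.0636).

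The signs and sizes of the DUSP1 change, and of CRISPLD2 at 6 h, are thus limited by probe set, scaling and single arrays.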
